A study of Mus musculus with 4 samples.

Results

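The 57 genes described here encode initiation and elongation factors of translation, with the enzymes and binding proteins whose symbols share their stems. They were picked by a rule on gene symbols, out of 19938 genes measured on the arrays. A gene was taken where GEO's annotation of the platform gave a probe set 1 symbol beginning with Eif or Eef and a digit, and the 4 eIF2α kinase genes Eif2ak1 to Eif2ak4 were left out. The names covered 67 probe sets, and the brightest by mean signal stood for each gene. A further 11 probe sets carried several symbols, a factor among them, and name no gene here.

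The RNA was from mouse embryonic stem cells of the E14 line. Cells with a lentiviral shRNA against Usp22, called depleted, were measured on 2 arrays, and cells with a lentiviral shRNA against Luc, called control, on another 2. Both groups were cultured on gelatin without feeder cells, in medium with serum, LIF, the MEK inhibitor PD0325901 and the GSK3 inhibitor CH99021. The labels give no allele, no clone and no time after infection, and do not say whether the 2 arrays of a group stand for 2 cultures. The p-values therefore rest on array-to-array spread alone, and this may be technical.

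Translation begins when eIF2 brings the initiator tRNA to the small ribosomal subunit, which eIF1, eIF1A and the large eIF3 complex hold ready to scan for a start codon. The eIF4 factors recognise the cap and unwind the mRNA leader, eIF5 and eIF5B complete the start, and eIF2B recharges eIF2 with GTP. During elongation eEF1A delivers aminoacyl-tRNA and eEF2 moves the ribosome along the message. Embryonic stem cells are known for a low rate of protein synthesis compared with the cells they differentiate into.

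Promoters are shown for the 3 genes with the highest and the 3 with the lowest log2 fold change, so that the sequence before their start sites can be read beside the values. RefSeq's table (GRCm38.p6) held a window of 250 bases before to 50 after the start for 44 of the 57 genes. The 170 bases just before the start are printed 5′ to 3′ on the gene's own strand, with motif matches in capitals.
Eef1akmt2, chr7:132852648-132852817, minus strand: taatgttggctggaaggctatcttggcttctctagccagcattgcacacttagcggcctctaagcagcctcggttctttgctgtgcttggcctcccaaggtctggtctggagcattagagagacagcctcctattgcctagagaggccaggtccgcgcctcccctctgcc
Eif5a2, chr3:28781107-28781276, plus strand: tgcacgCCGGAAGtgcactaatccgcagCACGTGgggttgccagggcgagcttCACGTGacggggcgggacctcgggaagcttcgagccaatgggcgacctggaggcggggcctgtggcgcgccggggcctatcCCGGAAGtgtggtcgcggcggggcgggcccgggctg
Eef1e1, chr13:38659029-38659198, minus strand: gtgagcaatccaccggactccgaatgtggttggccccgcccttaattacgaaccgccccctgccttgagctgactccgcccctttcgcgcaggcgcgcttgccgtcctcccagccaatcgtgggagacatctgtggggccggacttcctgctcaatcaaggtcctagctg
Eif3d, chr15:77970825-77970994, minus strand: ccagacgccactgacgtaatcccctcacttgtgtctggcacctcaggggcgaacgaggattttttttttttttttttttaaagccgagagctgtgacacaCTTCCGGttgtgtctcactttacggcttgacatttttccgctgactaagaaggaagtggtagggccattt
Eif4ebp2, chr10:61452670-61452839, minus strand: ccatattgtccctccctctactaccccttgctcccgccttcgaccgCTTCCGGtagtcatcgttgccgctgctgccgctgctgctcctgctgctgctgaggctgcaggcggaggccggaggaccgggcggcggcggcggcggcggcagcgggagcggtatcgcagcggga
Eif4g3, chr4:137993285-137993454, plus strand: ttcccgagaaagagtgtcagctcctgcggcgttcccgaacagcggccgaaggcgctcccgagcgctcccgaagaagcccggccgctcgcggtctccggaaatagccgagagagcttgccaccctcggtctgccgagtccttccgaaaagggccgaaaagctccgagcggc

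The capitals mark CCGGAAG, bound by ETS factors, and CACGTG, the E-box, read on either strand, and no marked matches overlap. Eif5a2 held the ETS letters from 164 and 36 bases before the start and the E-box from 142 and 117. Eif3d held the ETS letters from 70 bases and Eif4ebp2 from 124 bases before the start, so matches stood on both sides of the range of values. Over the whole windows, both strands, the ETS letters occurred in 15 of 44 members (34.1%) and in 9.93% of all genes in the table. The E-box occurred in 12 (27.3%, against 8.09%), the YY1 letters ATGGCGG in 5 (11.4%, against 4.69%) and the CRE letters TGACGTCA in 1 (2.27%, against 2.03%). The NRF1 motif occurred in 1 member (2.27%, against 1.07%). A match is a run of letters and not a bound site.

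The gene targeted by the shRNA was lower on both depleted arrays. Usp22, the deubiquitinase of the SAGA coactivator complex, read 8.23 and 8.29 on the depleted arrays, against 9.41 and 9.36 on the control arrays, in quantile-normalized log2 signal (difference −1.12 on the log2 scale with a standard error of 0.27, limma adjusted p = 0.00826). Its difference was −1.09 without depleted replicate 1 and −1.15 without depleted replicate 2. Leaving out control replicate 1 gave −1.09, and leaving out control replicate 2 gave −1.15. Each of these fits has a lone array in 1 group, so only the size of the difference is given. Of 11 measured embryonic stem cell markers, all 11 lay above the receptor background, a log2 signal of 6.99 that is the 95th percentile of the mean signals of olfactory and vomeronasal receptor genes. Above it also lay 4 of 8 fibroblast, 3 of 6 primitive endoderm, 4 of 6 trophectoderm, 2 of 3 mesoderm and 1 of 4 neuroectoderm markers. The log2 of the summed signal was 13.83 and 13.87 on the depleted arrays, against 13.94 and 13.97 on the control arrays, for the stem cell list. For fibroblast markers it was 10.03 and 10.11 in depleted cells, against 10.11 and 10.41 in control cells. For primitive endoderm it was 9.21 and 9.27 in depleted cells, against 9.42 and 9.76 in control cells, and for trophectoderm 10.51 and 10.49 in depleted cells, against 10.81 and 10.75 in control cells. For mesoderm it was 9.24 and 9.12 in depleted cells, against 9.33 and 9.69 in control cells, and for neuroectoderm 8.49 and 8.55 in depleted cells, against 8.63 and 9.07 in control cells. Every one of these lists was thus lower in sum on each depleted array than on control replicate 2. Against control replicate 1 this also held for every list except the fibroblast one. The part of other cell types in the results was not tested. The control arrays correlated at 0.941 across genes and the depleted arrays at 0.978. Control replicate 2 stood apart on the first principal component, the axis of largest variation between the arrays. It lay at −55.5 there, against −3.30 for control replicate 1 and 37.0 and 21.9 for the depleted arrays.

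No translation factor gene passed the test between depleted and control cells. Of 57 genes, 0 were higher and 0 lower at a limma adjusted p under 0.05, against 2.62% of all genes higher and 0.105% lower. At an unadjusted p under 0.05, 5 were higher and 1 lower, against 15.4% and 6.63% of all genes. The fit shared its standard error of 0.27 over all genes, so the 95% interval of each log2 fold change reached 0.53 to either side and the smallest change called anywhere was 0.86 in size. The members spanned −0.67 (Eif4g3) to 0.74 (Eef1akmt2), inside that limit of the fit with a shared variance. In bulk RNA, fewer cells of a type and less of an RNA per cell cannot be told apart.

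Many of these genes had groups without overlap, as did many genes over the whole arrays. Both depleted arrays lay above both control arrays for 28 of the 57 genes and below them for 13, while 16 overlapped. Over all genes, 27.4% were higher without overlap and 33.3% lower. Among those above the receptor background, 25 of 49 members were higher and 12 lower, against 3588 and 3680 of 9753 genes. With a fold of at least 1.5 as well, 4 genes were higher (Eef1akmt2, Eif5a2, Eef1e1 and Eif2a) and 1 lower (Eif4g3), against 12.1% and 3.35% of all genes. The median log2 fold change of the 57 was 0.13, and that of all genes was −0.12. The gap was smaller among bright genes: among genes above a mean log2 signal of 7.92 the 45 members there had a median of 0.11 and all genes one of 0.07. Control replicate 2 was the lowest of the 4 arrays for 31 of the 57 genes, or 54.4%, and for 37.8% of all genes. Above the receptor background it was the lowest for 55.1% of the members and 46.7% of all genes there. Without that array the medians were 0.10 for the members and −0.05 for all genes, and 0 members passed, against 0.331% of all genes higher and 0.01% lower. Without control replicate 1, 15 passed as higher and 2 as lower, against 24.5% and 21.2% of all genes.

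**Figure D1:**
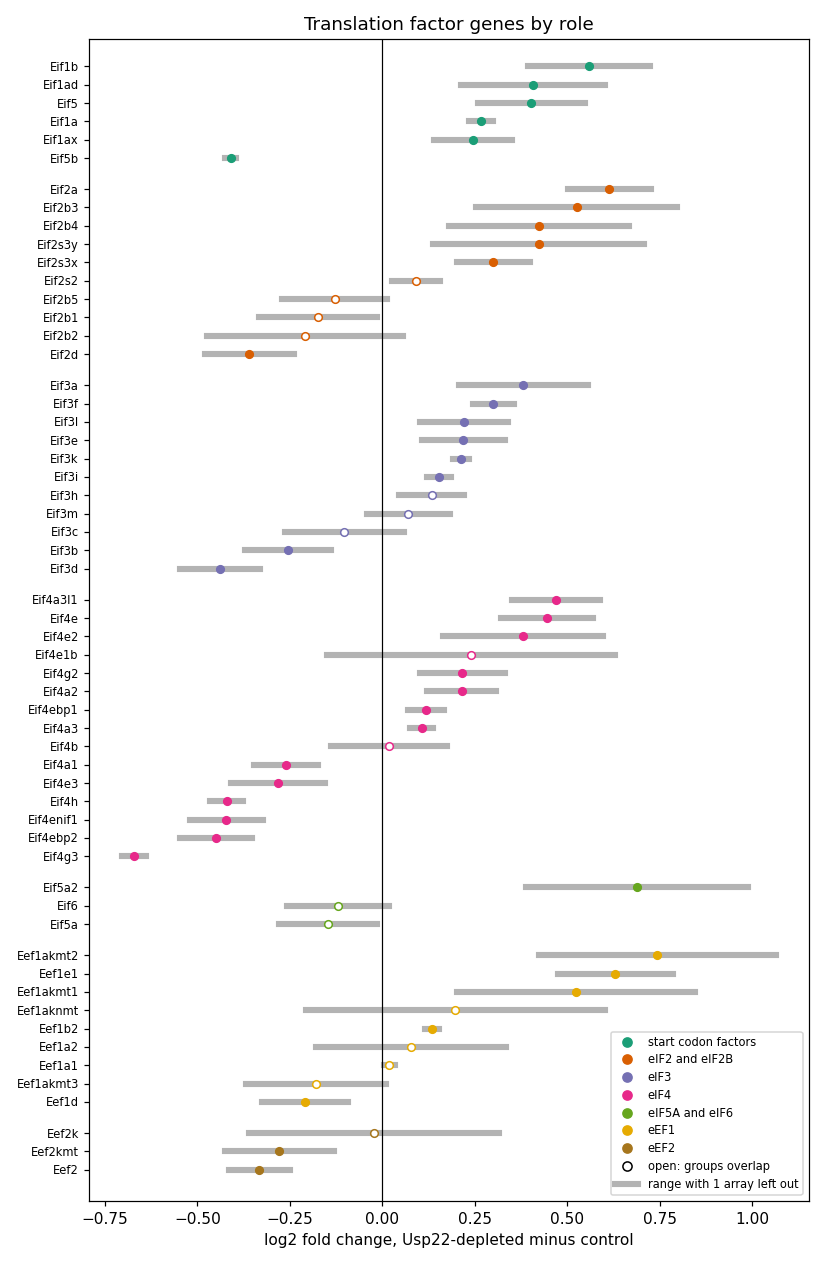
Log2 fold change, depleted minus control, for each of the 57 genes by role, as points; grey bars span the values with 1 array left out at a time, and open points mark genes whose groups overlap. Points run from −0.67 for Eif4g3 to 0.74 for Eef1akmt2, and no gene passed the test.

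**Figure D2:**
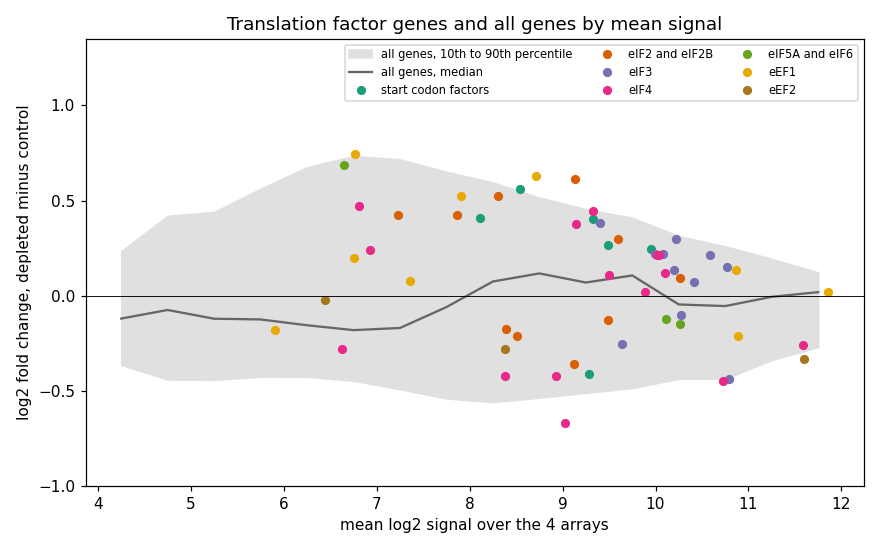
Log2 fold change against mean log2 signal over the 4 arrays, with the median and the 10th to 90th percentile of all genes in bands of 0.5 log2 units. The all-gene median lies at −0.18 in the band from 6.5 to 7 and at 0.12 in the band from 8.5 to 9, and the bright members lie on both sides of 0.

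None of the genes grouped by symbol as start codon factors (eIF1, eIF1A, eIF5 and eIF5B) passed the test. Eif1 itself is not among the 57. All genes of the group except Eif5b had a higher mean in depleted cells. Of 6 genes, 5 were higher and 1 lower without overlap, against 27.4% and 33.3% of all genes, with a median log2 fold change of 0.33, or 0.22 without control replicate 2. Eif1b, a paralog of the scanning factor eIF1, read 8.85 and 8.78 on the depleted arrays, against 8.42 and 8.09 on the control arrays. The groups differed by 0.56 (limma adjusted p = 0.202), and by 0.39 without control replicate 2, the lowest of its arrays. Eif5, which makes eIF2 hydrolyse its GTP at the start codon, read 9.56 and 9.49 on the depleted arrays, against 9.27 and 8.98 on the control arrays (log2 fold change 0.40, limma adjusted p = 0.321). Eif1ad, whose protein carries an eIF1A-like domain, read 8.28 and 8.34 on the depleted arrays, against 8.10 and 7.71 on the control arrays (0.41, limma adjusted p = 0.316). Control replicate 2 was the lowest array for all 3 of these genes, and without it Eif5 stood at 0.26 and Eif1ad at 0.21.

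The eIF1A genes Eif1a and Eif1ax showed small, close differences. Eif1ax, the X-linked copy, read 10.14 and 9.997 on the depleted arrays, against 9.93 and 9.72 on the control arrays (log2 fold change 0.25). Eif1a stood at 0.27, from 9.64 and 9.60 on the depleted arrays, against 9.39 and 9.32 on the control arrays. Eif5b, the GTPase that joins the large subunit to the small one, ran the other way. It read 9.06 and 9.09 on the depleted arrays, against 9.50 and 9.47 on the control arrays, with a standard deviation of 0.0222 in depleted and 0.0214 in control cells (n = 2 each). Its log2 fold change of −0.41 (limma adjusted p = 0.314) was −0.40 when control replicate 1 was left out and −0.43 when control replicate 2 was, and −0.19 after median centring of the arrays.

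Among the genes of eIF2 and its exchange factor, the 3 measured eIF2 subunit genes were all higher by their means. They cover the β and γ subunits only, and the α subunit gene Eif2s1 is not among the 57. The eIF2B subunits lay on both sides of 0. Eif2s2, the β subunit, overlapped between the groups (log2 fold change 0.09). The γ subunit has an X-linked gene, Eif2s3x, and a Y-linked gene, Eif2s3y. Eif2s3x read 9.74 and 9.76 on the depleted arrays, against 9.55 and 9.35 on the control arrays (0.30), and Eif2s3y 8.09 and 8.07 on the depleted arrays, against 7.94 and 7.37 on the control arrays (0.42). Without control replicate 2 the pair stood at 0.20 and 0.14.

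Of the eIF2B genes, Eif2b3 and Eif2b4 were higher without overlap. Eif2b3, the γ subunit, read 8.59 and 8.55 on the depleted arrays, against 8.32 and 7.77 on the control arrays (log2 fold change 0.52, limma adjusted p = 0.227). Eif2b4, the δ subunit, read 7.61 and 7.27 on the depleted arrays, against 7.26 and 6.77 on the control arrays (0.42, limma adjusted p = 0.304). Control replicate 2 was lowest for both, and without it they stood at 0.25 and 0.18. Eif2b1, Eif2b2 and Eif2b5, the α, β and catalytic ε subunits, overlapped between the groups at −0.17, −0.21 and −0.13, and after median centring of the arrays Eif2b1 and Eif2b5 were on the other side of 0, at 0.02 and 0.09.

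A pair of genes named for eIF2, but outside the complex, pointed in opposite directions. Eif2a encodes a separate factor that can bring initiator tRNA to the ribosome. It read 9.55 and 9.33 on the depleted arrays, against 8.90 and 8.76 on the control arrays, or 9.44 ± 0.159 in depleted and 8.83 ± 0.0974 in control cells (SD, n = 2 each). The groups did not overlap, and the log2 fold change of 0.61 (limma adjusted p = 0.167) was 0.54 when control replicate 2 was left out and 0.68 when control replicate 1 was. Eif2d, a tRNA-delivering factor that also acts in ribosome recycling, read 8.82 and 9.06 on the depleted arrays, against 9.33 and 9.28 on the control arrays (−0.36, limma adjusted p = 0.367).

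In eIF3, the 11 measured subunit genes held 6 that were higher and 2 that were lower without overlap (27.4% and 33.3% of all genes), with a median of 0.15. The subunits on the lower side were Eif3d and Eif3b. Eif3d, which can itself bind the cap of selected mRNAs, read 10.47 and 10.68 on the depleted arrays, against 11.03 and 10.996 on the control arrays. Its mean was 10.57 ± 0.152 in depleted and 11.01 ± 0.0235 in control cells (SD, n = 2 each), a log2 fold change of −0.44 that missed the threshold (limma adjusted p = 0.288). Eif3b, a core scaffold subunit, read 9.42 and 9.61 on the depleted arrays, against 9.88 and 9.65 on the control arrays (−0.25, limma adjusted p = 0.509). Depleted replicate 2 and control replicate 2 lay close together for Eif3b, and after median centring of the arrays its log2 fold change was −0.04.

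Eif3a, the largest subunit and a partner of Eif3b in the scaffold, was on the higher side. It read 9.71 and 9.47 on the depleted arrays, against 9.38 and 9.03 on the control arrays (log2 fold change 0.38, limma adjusted p = 0.343; 0.21 without control replicate 2). Eif3f read 10.43 and 10.32 on the depleted arrays, against 10.11 and 10.04 on the control arrays (0.30), and Eif3l 10.31 and 10.07 on the depleted arrays, against 9.998 and 9.93 on the control arrays (0.22). Eif3e, Eif3k and Eif3i, further subunits, were higher without overlap at 0.22, 0.21 and 0.15. Eif3h (0.13), Eif3m (0.07) and Eif3c (−0.10, and 0.12 after median centring of the arrays) overlapped between the groups. The other probe set of Eif3m was higher without overlap, at 0.33. The median standard deviation within eIF3 was 0.152 in depleted and 0.0497 in control cells, against 0.124 in depleted and 0.257 in control cells over all genes.

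The eIF4 genes lay on both sides, with 7 of 15 higher and 6 lower without overlap, beside 27.4% and 33.3% of all genes, and a median of 0.11. The 6 include Eif4a1 and Eif4enif1, whose other probe sets stood above 0. Eif4g3, a paralog of the eIF4G scaffold that bridges cap and ribosome, had the lowest value of the 57. It read 8.65 and 8.72 on the depleted arrays, against 9.34 and 9.38 on the control arrays, or 8.69 ± 0.0453 in depleted and 9.36 ± 0.0310 in control cells (SD, n = 2 each). The arrays of a group lay close together and the groups far apart. The signal was 1.59-fold lower (log2 fold change −0.67, limma adjusted p = 0.133), stayed between −0.70 and −0.64 with 1 array left out, and was −0.45 after median centring of the arrays. Eif4g2, which encodes the eIF4G-related protein DAP5 that does not bind eIF4E, read 10.17 and 10.07 on the depleted arrays, against 10.02 and 9.79 on the control arrays (0.22, limma adjusted p = 0.576).

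The cap-binding proteins and their inhibitors also lay on both sides of 0. Eif4e, the cap-binding protein, read 9.67 and 9.43 on the depleted arrays, against 9.19 and 9.02 on the control arrays (log2 fold change 0.45, limma adjusted p = 0.284). The other probe sets of Eif4e stood at 0.39 and −0.29, and the average of its probe sets at 0.18. Eif4e2, a cap-binding homolog that represses translation, read 9.44 and 9.23 on the depleted arrays, against 9.17 and 8.74 on the control arrays (0.38, and 0.16 without control replicate 2). Eif4e3 (−0.28) and the oocyte form Eif4e1b (0.24, with overlap) were both under the receptor background in mean signal. Eif4ebp2 encodes a protein that holds eIF4E away from eIF4G until mTOR phosphorylates it. It read 10.49 and 10.51 on the depleted arrays, against 10.86 and 11.05 on the control arrays (−0.45, limma adjusted p = 0.280; −0.35 without control replicate 2). Its paralog Eif4ebp1 read 10.21 and 10.11 on the depleted arrays, against 10.08 and 10.01 on the control arrays (0.12, limma adjusted p = 0.760). Eif4enif1, the carrier that takes eIF4E into the nucleus, read 8.10 and 8.25 on the depleted arrays, against 8.69 and 8.50 on the control arrays (−0.42, limma adjusted p = 0.304). Its direction turned on its other probe set, at 0.50, and with the probe sets averaged, at 0.038.

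The RNA helicase eIF4A and its helpers gave mixed values. Eif4a1 read 11.37 and 11.54 on the depleted arrays, against 11.77 and 11.66 on the control arrays (log2 fold change −0.26, limma adjusted p = 0.499). Its direction turned on its other probe sets, at 0.12 and 0.21, and with the probe sets averaged, at 0.024. Its paralog Eif4a2 read 10.19 and 10.09 on the depleted arrays, against 10.02 and 9.83 on the control arrays (0.21, limma adjusted p = 0.579). Eif4h, which stimulates the helicase, read 8.70 and 8.74 on the depleted arrays, against 9.19 and 9.10 on the control arrays (−0.42, limma adjusted p = 0.305). Eif4b, the other stimulating factor, overlapped between the groups at 0.02. Eif4a3, the related helicase of the exon junction complex, stood at 0.11, and the Eif4a3-like gene Eif4a3l1, under the receptor background in mean signal, at 0.47.

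**Figure D3:**
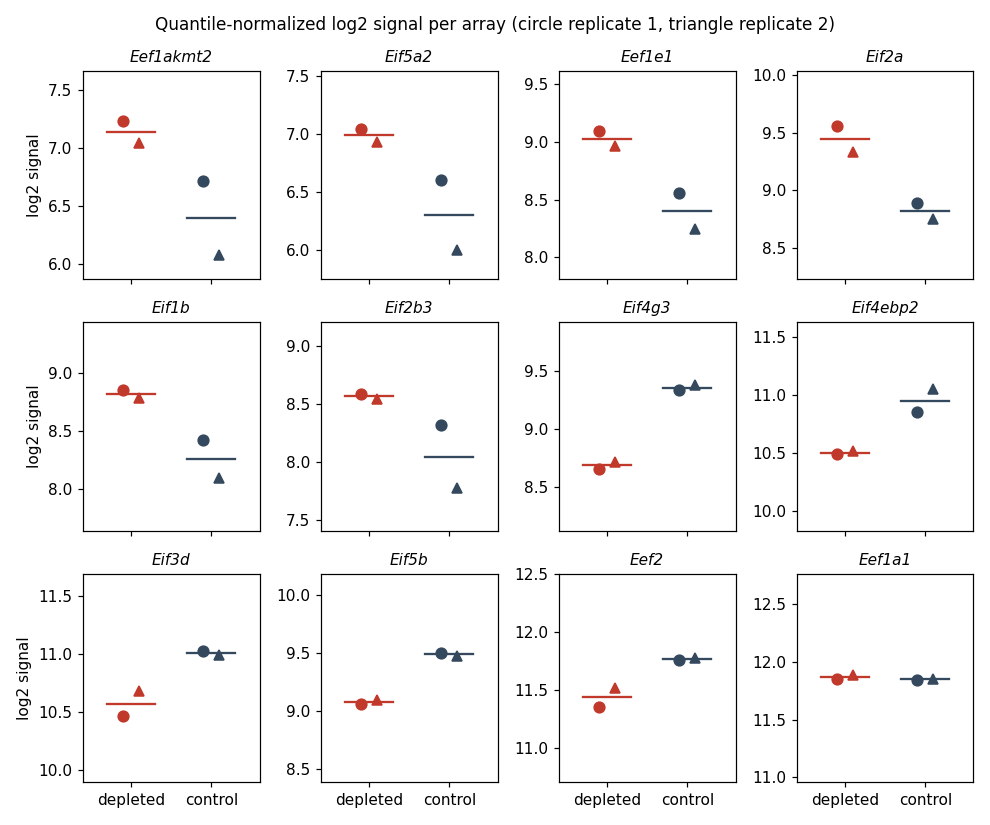
Quantile-normalized log2 signal of 12 genes on each array (circles replicate 1, triangles replicate 2, lines group means), depleted left and control right, on axes of equal span. The control triangle lies below the control circle for Eef1akmt2, Eif5a2, Eef1e1, Eif2a, Eif1b and Eif2b3, while the control arrays of Eif4g3, Eif5b, Eef2 and Eef1a1 lie close together.

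Among the factors that act around elongation and subunit joining, Eif5a2 was higher in depleted cells without overlap and Eif5a and Eif6 overlapped. eIF5A carries the modified lysine hypusine and helps the ribosome through difficult peptide bonds. Eif5a2 read 7.05 and 6.94 on the depleted arrays, against 6.60 and 6.002 on the control arrays. Its log2 fold change was 0.69 (limma adjusted p = 0.122), or 0.39 when control replicate 2 was left out and 0.99 when control replicate 1 was, and its mean signal was under the receptor background. Eif5a overlapped between the groups, with 10.17 and 10.21 on the depleted arrays, against 10.47 and 10.20 on the control arrays (−0.15, and 0.08 after median centring of the arrays). Its other probe set, also with overlap, stood at 0.18. Eif6, which keeps the large subunit from joining too early, also overlapped (−0.12, and 0.10 after median centring of the arrays).

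In the eEF1 group, 4 of 9 genes were higher and 1 lower without overlap, beside 27.4% and 33.3% of all genes, with a median of 0.13, and the highest values came from genes that modify eEF1A or act in another complex. Eef1a1, the main eEF1A gene, read 11.85 and 11.88 on the depleted arrays, against 11.84 and 11.85 on the control arrays. The groups overlapped, with a log2 fold change of 0.02, or −0.01 after cyclic loess, and a 95% interval reaching 0.53 to either side by the shared error. Eef1b2 and Eef1d, subunits of the complex that recharges eEF1A with GTP, stood at 0.13 and −0.21, both without overlap. After median centring of the arrays, Eef1d was at 0.08. Eef1a2, the eEF1A form of adult muscle and neurons, overlapped at 0.08 and was −0.18 without control replicate 2.

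Eef1akmt2, which encodes an eEF1A lysine methyltransferase, had the highest value of the 57. It read 7.24 and 7.05 on the depleted arrays, against 6.72 and 6.08 on the control arrays, or 7.14 ± 0.134 in depleted and 6.40 ± 0.453 in control cells (SD, n = 2 each). Control replicate 2 was well under control replicate 1. The log2 fold change was 0.74 (limma adjusted p = 0.0953), 0.42 when control replicate 2 was left out and 1.06 when control replicate 1 was, and the mean signal was under the receptor background. Eef1akmt1, of the same enzyme class, read 8.21 and 8.13 on the depleted arrays, against 7.97 and 7.32 on the control arrays (0.52, limma adjusted p = 0.229; 0.20 without control replicate 2). Eef1aknmt and Eef1akmt3 overlapped between the groups, at 0.20 and −0.18, both under the receptor background in mean signal. Eef1e1, which despite its name encodes a scaffold protein of the multi-tRNA synthetase complex, read 9.09 and 8.96 on the depleted arrays, against 8.55 and 8.24 on the control arrays. Its gap was 0.63 (limma adjusted p = 0.158), and 0.47 without control replicate 2.

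Of the 3 eEF2 genes, 2 were lower without overlap, Eef2 and Eef2kmt, beside 33.3% of all genes. Eef2, the translocase, read 11.35 and 11.52 on the depleted arrays, against 11.76 and 11.77 on the control arrays, or 11.43 ± 0.116 in depleted and 11.77 ± 0.00927 in control cells (SD, n = 2 each). Its log2 fold change was −0.33 (limma adjusted p = 0.4001) and −0.10 after median centring of the arrays. Eef2kmt, which encodes an eEF2 methyltransferase, read 8.09 and 8.39 on the depleted arrays, against 8.44 and 8.59 on the control arrays (−0.28, limma adjusted p = 0.472). Eef2k, the kinase that switches eEF2 off, overlapped at −0.02 and was under the receptor background in mean signal. The other probe set of Eef2k, also with overlap, stood at 0.17.

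Whether any of these genes passed changed with how the variance was modelled and which genes entered the fit. Where limma let the variance follow the signal (an intensity trend), bright genes had smaller standard errors and 6 of the 57 passed, 1 higher and 5 lower, against 1.64% and 1.43% of all genes. They comprised Eif2a (limma adjusted p = 0.0333), Eef2 (0.000350), Eif3d (0.00141), Eif4ebp2 (0.00143), Eif4a1 (0.0123) and Eif4g3 (0.0232). Eif4a1 entered that fit by its brightest probe set, and its other probe sets stood at 0.12 and 0.21. After median centring of the arrays, 2 passed as higher, Eif2a at 0.84 and Eef1e1 at 0.84 (limma adjusted p = 0.0461 and 0.0466), and 0 as lower, against 4.65% and 0.1% of all genes. A trend with robust settings called 2 higher, Eif2a and Eef1e1, and 4 lower, Eif4g3, Eif4ebp2, Eif3d and Eef2, against 1.91% and 1.7% of all genes. The same model after median centring called Eif2a and Eef1e1 higher and 0 lower, against 3.04% and 0.0401%. The fit of genes above the receptor background called 0 members, against 6.91% higher and 1.53% lower there, and the fit with the replicate block called 0, against 4.29% and 0.211%. Among genes above a mean log2 signal of 7.92 alone, 8 passed, with Eef1e1, Eif2a, Eif1b, Eif2b3 and Eif4e higher and Eif4g3, Eif4ebp2 and Eif3d lower, against 16.9% and 20.2% of the genes in that fit. Eif4e entered the fit of these bright genes by its brightest probe set, and its other probe sets stood at 0.39 and −0.29. The values of Eef2, Eif3d, Eif4a1, Eif4ebp2 and Eif4g3 were smaller in size after median centring of the arrays, at −0.10, −0.17, −0.04, −0.20 and −0.45.

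Several genes had probe sets that disagreed, which limits what their single value can show. Of the 8 members with more than 1 probe set, 6 had values on both sides of 0. For Eif4enif1 the brightest probe set stood at −0.42 and the other at 0.50, from 8.25 and 8.27 on the depleted arrays, against 8.06 and 7.47 on the control arrays. For Eif4a1 the brightest probe set stood at −0.26, while the others stood at 0.12 and 0.21. Among the probe sets of Eif4a1 and of Eif4enif1, only the brightest was lower. Eif5a stood at −0.15 by the brightest and 0.18 by the other. For Eif4e, the pair of brighter probe sets stood at 0.45 and 0.39, and the dimmest at −0.29. Eif4e1b (0.24 and −0.47) and Eef2k (−0.02 and 0.17) also split, whereas Eif2s2 (0.09 and 0.11) and Eif3m (0.07 and 0.33) did not. Translation factor genes are known for processed pseudogenes and close paralogs, and a probe set cannot always tell these apart. For most genes named here, probe-set numbers ran in blocks by chromosome. The brightest probe sets of Eif4a1, Eif4enif1, Eif5a, Eif4e, Eif3m and Eif4e1b had numbers outside their own chromosome's block. That of Eif4a1, a gene of chromosome 11, was numbered among genes of chromosome 19. These values may therefore belong to other loci. The part of pseudogenes and paralogs in them was not tested.

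**Figure D4:**
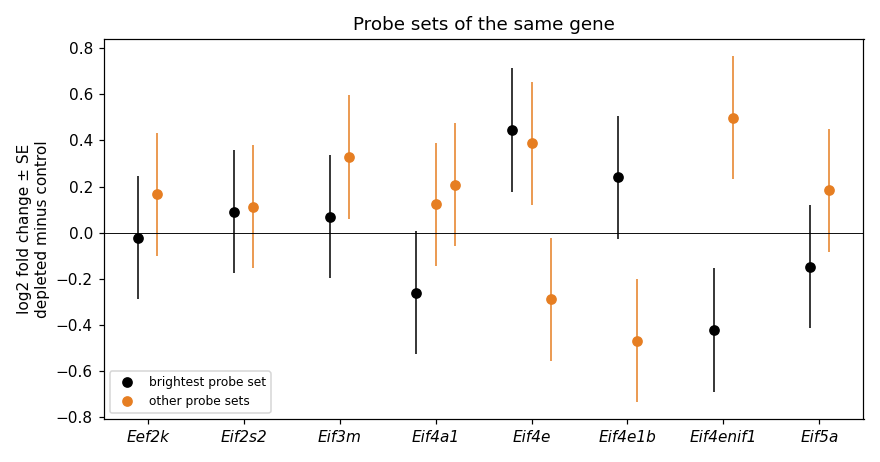
Log2 fold change, depleted minus control, with its standard error, for every probe set of the 8 genes that have more than 1. The brightest probe sets (black) of Eif4a1, Eif4enif1 and Eif5a lie under 0 and their other probe sets (orange) above it.

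Other translation genes, whose names lie outside the rule, included a pair of calls. Of 58 measured genes, out of 67 listed, 2 rose and 0 fell (limma adjusted p under 0.05), against 2.62% and 0.105% of all genes. The list counts Nat1, an arylamine N-acetyltransferase gene that is not one of translation. Nat1 was not called here, and its groups overlapped. Without overlap, 24 were higher and 17 lower, beside 27.4% and 33.3% of all genes, and the median log2 fold change was 0.26. Mtrf1, a release factor of the mitochondrial ribosome, rose by 1.10 on the log2 scale, with 6.96 and 7.01 on the depleted arrays, against 6.18 and 5.59 on the control arrays (limma adjusted p = 0.00934). Paip1, a partner of the poly(A)-binding protein and eIF4A, rose by 1.00, with 7.63 and 7.27 on the depleted arrays, against 6.74 and 6.17 on the control arrays (limma adjusted p = 0.0228). Both lay under the receptor background in mean signal, and neither passed without control replicate 2, where they stood at 0.81 and 0.71, or without either depleted array. On the deposited log2 values they stood at 0.95 and 0.88 and did not pass (limma adjusted p = 0.0682 and 0.0955). The median of the list was 0.05 without control replicate 2. That array was the lowest of the 4 for 33 of the 58 genes. It was the lowest for 37.8% of all genes and for 46.7% of genes above the receptor background. The next lowest p-values belonged to the mitochondrial elongation factor gene Guf1 (0.81), the mitochondrial release factor gene Mtrf1l (0.70), the eIF2α kinase gene Eif2ak3 (0.62) and Gigyf1 (−0.62), a partner of Eif4e2 (limma adjusted p from 0.0666 to 0.164).

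The gap between the group and all genes changed with the scaling and with the genes compared. The median of the 57 exceeded that of all genes by 0.25 after quantile normalization, by 0.41 after median centring of the arrays or on the deposited log2 values, and by 0.19 after cyclic loess. It exceeded it by 0.16 without control replicate 2, and by 0.04 among genes above a mean log2 signal of 7.92.

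**Figure D5:**
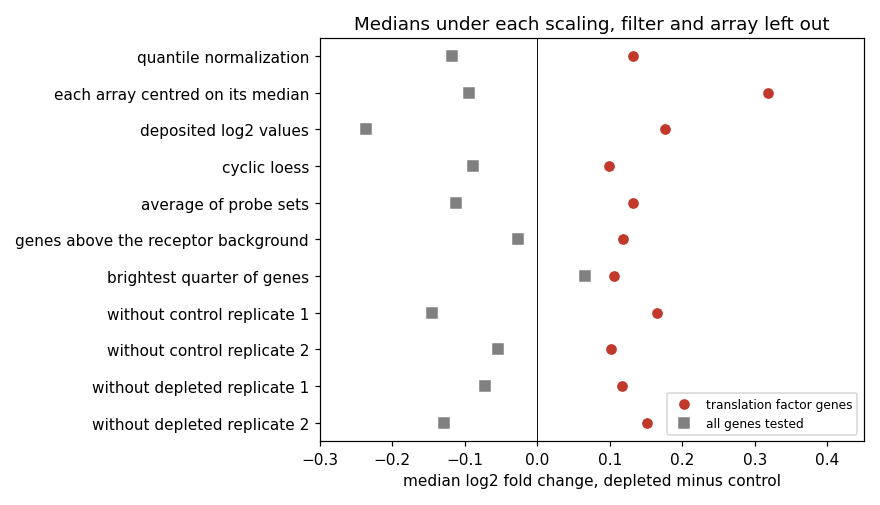
Median log2 fold change, depleted minus control, of the translation factor genes (circles) and of all genes tested (squares) under each scaling, filter and left-out array; the genes called brightest are those above a mean log2 signal of 7.92. Circles lie between 0.10 and 0.32, and squares between −0.24 and 0.07.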

How the data were processed

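Per the labels' protocols, cDNA made from the RNA of E14 cells was labelled with biotin and hybridised to Affymetrix arrays of 1 colour. The authors deposited 1 linear intensity for each of 28856 probe sets on 4 arrays. How those values were background-corrected and normalized is not given in the sources used here. Here they were put on the log2 scale with no pseudocount and quantile-normalized. Probe sets were named through GEO's platform annotation, where 21789 have 1 symbol, 1621 several and 5446 are not named here. All 57 members matched RefSeq by gene ID. The groups were compared by a two-sided test in limma (version 3.58.1, under R version 4.3.3), using lmFit and then eBayes, with Benjamini-Hochberg adjustment over 19938 genes. The fitting code was tested on simulated data with known changes. With 2 arrays in each group the smallest p of an exact permutation test is 0.333, and the number of arrays limits all precision. The members and lists were chosen with earlier results of these data known. Named genes were, per role, the 3 with the largest change without overlap in each direction, the brightest and their paralogs, and of the other translation genes those called and the 6 with the lowest p; the remaining members are named to account for all 57. The alternatives were other scalings, variance models, filters, averaged probe sets, the replicate block and each array left out. Promoters came from RefSeq's table (GRCm38.p6), and the files name no build.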

Additional observations from a re-analysis of the deposited data

How the results depend on the processing

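Of the 57 genes, 40 kept their sign in each scaling, variance model, filter and left-out array and with averaged probe sets, and 17 did not. Eif4e, among the 40, turned on another of its probe sets. The number of factor genes called higher and lower was 0 and 0 on the deposited log2 values, after cyclic loess, with robust settings, with averaged probe sets and among genes above the receptor background. It was 2 and 0 after median centring of the arrays, 1 and 5 with an intensity trend, 2 and 4 with a trend and robust settings, and 5 and 3 among genes above a mean log2 signal of 7.92. With 1 array left out it ran from 0 to 15 higher and from 0 to 2 lower, and the median from 0.10 to 0.17. The median was 0.32 after median centring. Usp22 ran from −1.15 to −1.09 with 1 array left out. The other translation genes had 0 called higher on the deposited values, 1 among genes above the receptor background and 6, with 4 lower, among genes above 7.92. They had 1 called lower with a trend, with or without robust settings, and from 0 to 20 higher and 0 to 4 lower with 1 array left out. A centred fit with trend and robust settings, chosen after seeing the data, called 2 factor genes and 4 other translation genes higher, with the same median of 0.32.

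Signs turned as follows, and the cause was not tested. After median centring, in both centred fits, Eef1d was 0.080, Eif2b1 0.023, Eif2b5 0.093, Eif3c 0.12, Eif5a 0.084 and Eif6 0.097. On the deposited values Eef1a2 was −0.029. After cyclic loess Eef1a1 was −0.011, Eef2k 0.033 and Eif4b −0.0019. With averaged probe sets Eef2k was 0.072, Eif4a1 0.024, Eif4e1b −0.11, Eif4enif1 0.038 and Eif5a 0.018. On another probe set, an alternative chosen after seeing the data, Eef2k was 0.17, Eif4a1 0.12 or 0.21, Eif4e −0.29, Eif4e1b −0.47, Eif4enif1 0.50 and Eif5a 0.18. With 1 array left out Eef1a2 ran from −0.18 to 0.33, Eef1akmt3 from −0.37 to 0.0086, Eef1aknmt from −0.21 to 0.60, Eef2k from −0.36 to 0.32, Eif2b2 from −0.47 to 0.054, Eif2b5 from −0.27 to 0.013, Eif3c from −0.26 to 0.058, Eif3m from −0.042 to 0.18, Eif4b from −0.14 to 0.17, Eif4e1b from −0.15 to 0.63 and Eif6 from −0.26 to 0.017. In these fits the lone array was assumed to vary like the other group.

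The fit with the replicate block called 0 factor genes higher and 0 lower, and over all genes 856 higher and 42 lower, against 523 and 21 without it. The replicate numbers were shared but not shown to pair the arrays, since the difference between replicates 2 and 1 correlated at 0.105 between the groups. The 8 genes at or under the receptor background have signals that receptor genes also reach.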
